A study of Homo sapiens with 12 samples.

Results

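This report describes 7 genes of the tripartite motif (TRIM) family in band 11p15 of chromosome 11. TRIM21, TRIM68, TRIM6, TRIM34, TRIM5, TRIM22 and TRIM3 were taken by name from a table of 58302 genes. They were chosen by their FPKM in these same libraries, which was higher in gemcitabine-resistant than in parental cells, so their resistant and parental levels are a description. No p is given for them in these contrasts, and counts of members past the limits of the fit carry no evidence of their own. The table covered 4 lines with 3 libraries each. BxPC-3 and CFPAC-1 are established human pancreatic ductal adenocarcinoma lines that are sensitive to gemcitabine (GEM), a deoxycytidine analog. Their GEM-resistant derivatives, BxPC-3-GR from the one and CFPAC-1-GR from the other, were obtained by prolonged culture with stepwise rising GEM. BxPC-3-GR was labelled mesenchymal in morphology, and BxPC-3, CFPAC-1 and CFPAC-1-GR were labelled epithelial. There was 1 resistant line for each parent, and nothing states that the 3 libraries of a line came from separate cultures, so their spread may be technical. RNA amounts were given as FPKM, the fragments of a gene divided by its length and by the depth of the library.

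TRIM proteins share a RING finger, a B-box and a coiled coil, and the RING finger makes most of them E3 ubiquitin ligases. Many act in antiviral defense: TRIM5 and TRIM22 restrict retroviruses, TRIM21 is a cytosolic receptor for antibody-coated virus, and several members are induced by interferon. The genes of 11p15 include a compact cluster of related copies, TRIM6, TRIM34, TRIM5 and TRIM22, beside the beta-globin and olfactory receptor genes.

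All 6 epithelial markers examined averaged 1 FPKM or more in every line. Their summed FPKM ran from 838 to 917 in BxPC-3 and from 945 to 1012 in BxPC-3-GR, and from 2636 to 2914 in CFPAC-1 and from 1156 to 1347 in CFPAC-1-GR, where it was lower. The leukocyte genes PTPRC and MS4A1 were listed at 0 in every library. Of 8 leukocyte markers, however, 3 averaged 1 FPKM or more in CFPAC-1 and in CFPAC-1-GR, and 1 did in BxPC-3 and in BxPC-3-GR. The summed FPKM of 8 leukocyte markers ran from 3.21 to 4.45 in BxPC-3 and from 1.65 to 2.22 in BxPC-3-GR, and from 38.6 to 48.5 in CFPAC-1 and from 15.1 to 18.3 in CFPAC-1-GR, so that it was lower in each resistant line. The sum of 6 fibroblast markers was higher in each resistant line, from 0.746 to 0.911 FPKM in BxPC-3 and from 1.01 to 1.25 FPKM in BxPC-3-GR, and from 1.85 to 2.36 FPKM in CFPAC-1 and from 3.23 to 4.12 FPKM in CFPAC-1-GR. At most 1 of the 6 averaged 1 FPKM or more in any line, and not all moved with the sum. COL1A2 and DCN were listed at 0 in every BxPC-3-GR library but not in every BxPC-3 library. PDGFRB did the reverse. Endothelial markers summed to at most 0.911 FPKM in any library. The part of these shifts in the values of the members was not tested. The depth inferred from the steps between low values lay between 12600000 and 25200000 fragments per library. In bulk RNA, fewer cells with a transcript and less of it per cell cannot be told apart.

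In the order of their start along the forward strand of GRCh38, TRIM21 lay at chr11:4384897-4393696 and TRIM68 at chr11:4598672-4608259, both on the minus strand. TRIM6 followed at chr11:5596109-5612958 and TRIM34 at chr11:5619764-5644398, both on the plus strand. TRIM5 was annotated at chr11:5663557-5938619 on the minus strand, and the whole of TRIM22, at chr11:5689689-5737089 on the plus strand, lies within that span. TRIM3 lay at chr11:6448613-6474459 on the minus strand. Their starts were 0.290 to 2.35 Mb from that of RRM1, the large subunit of ribonucleotide reductase and a target of GEM. Whether the fragments were counted by strand is not given in the sources used here. Fragments from any sequence that TRIM5 and TRIM22 share could thus not be told apart. Whether their exons overlap was not examined.

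Because several members are interferon-induced, the bases around their transcription starts were searched for the core of the interferon-stimulated response element, a pair of GAAA runs with 2 bases between them, on either strand. RefSeq promoter sequences (GRCh38.p14) were given for 6 of the 7 genes, with 7 start sites. A match was held by 3 of the 7, against 3.57% of 34943 promoters of the same length and 54.4% of 57 promoters of interferon-stimulated genes. The matches lay near the starts of TRIM21, TRIM34 and TRIM5, and their stretches are shown 5′ to 3′ on the gene's strand with the matching bases in capitals. The TRIM21 stretch, chr11:4393663-4393692 on the minus strand, runs from base 11 to base 40 after the start and holds 2 overlapping matches. The TRIM34 stretch, chr11:5624751-5625000 on the plus strand, and the TRIM5 stretch, chr11:5685075-5685324 on the minus strand, cover the 250 bases before the start and hold the match on the opposite strand. TRIM68, with the highest fold increase of the 7 in BxPC-3-GR, is shown for contrast over chr11:4608232-4608481 on the minus strand. It had no such match, and the capitals there mark 4 CCAAT boxes on either strand, of which the leading pair overlap.
TRIM21: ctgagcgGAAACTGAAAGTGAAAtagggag
TRIM34: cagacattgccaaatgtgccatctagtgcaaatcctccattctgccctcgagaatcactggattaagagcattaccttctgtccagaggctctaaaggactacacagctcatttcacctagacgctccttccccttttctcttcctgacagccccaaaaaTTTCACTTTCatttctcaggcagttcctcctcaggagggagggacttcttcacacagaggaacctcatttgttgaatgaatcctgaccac
TRIM5: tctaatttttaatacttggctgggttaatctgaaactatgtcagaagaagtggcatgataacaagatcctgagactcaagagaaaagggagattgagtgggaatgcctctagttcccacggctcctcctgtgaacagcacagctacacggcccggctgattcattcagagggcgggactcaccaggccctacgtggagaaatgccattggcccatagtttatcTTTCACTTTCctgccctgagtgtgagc
TRIM68: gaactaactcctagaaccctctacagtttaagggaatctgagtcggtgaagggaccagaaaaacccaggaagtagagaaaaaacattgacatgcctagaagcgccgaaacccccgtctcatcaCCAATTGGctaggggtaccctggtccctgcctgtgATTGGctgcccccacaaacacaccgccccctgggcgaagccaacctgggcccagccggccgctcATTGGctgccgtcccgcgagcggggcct
The match began 90 bases before the start in TRIM34 and 27 bases before it in TRIM5, with the same 10 letters in both. These RefSeq starts of TRIM34 and TRIM5 lie inside the spans given above for the genes, and not at their outer ends. TRIM6, TRIM3 and the other start of TRIM34 had no match in this window. TRIM3 held 1 match to the gamma-interferon activation core, TTC and GAA with 3 bases between them, which 7.66% of all promoters held. A CCAAT box was found near the starts of TRIM68 and TRIM5, and in 34.6% of all promoters. A match is a run of letters and was not read as a binding site, and its relation to the increases was not tested.

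TRIM21 was by far the most abundant of the 7 in every line. TRIM21, also known as the autoantigen Ro52, binds the constant part of antibodies in the cytosol. It was at 7.48, 7.71 and 7.77 FPKM in the 3 BxPC-3 libraries and at 161, 158 and 167 FPKM in BxPC-3-GR. In CFPAC-1 it was at 9.43, 8.23 and 9.16 FPKM, and in CFPAC-1-GR at 72.4, 81.4 and 74.1 FPKM. The resistant libraries stood far above the parental ones in both backgrounds, and the BxPC-3-GR libraries stood above those of CFPAC-1-GR. Mean FPKM was 21.2-fold higher in BxPC-3-GR (162 ± 4.51 against 7.66 ± 0.151, SD, n = 3), with ratios between single libraries from 20.4 to 22.3. It was 8.50-fold higher in CFPAC-1-GR (76.0 ± 4.78 against 8.94 ± 0.632, SD, n = 3), with ratios from 7.68 to 9.89. On the log2(FPKM + 1) scale, which understates the change of low genes, the log2FC was 4.24 (SE 0.0481) and 2.95 (SE 0.0812).

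TRIM68, an E3 ligase described as a regulator of the androgen receptor, started from a far lower level. Its BxPC-3 libraries held 1.32, 1.43 and 1.38 FPKM, and its BxPC-3-GR libraries 35.3, 34.0 and 36.8 FPKM. CFPAC-1 held 1.25, 1.05 and 1.36 FPKM, and CFPAC-1-GR 4.40, 4.30 and 4.20 FPKM. The parental lines overlapped with each other, and each resistant line lay apart from its parent. The increase in BxPC-3-GR was 25.7-fold (35.4 ± 1.40 against 1.37 ± 0.0544, SD, n = 3; log2FC 3.94, SE 0.0523), and the one in CFPAC-1-GR was 3.52-fold (4.30 ± 0.0983 against 1.22 ± 0.159, SD, n = 3; log2FC 1.26, SE 0.0751). With upper-quartile scaling of the libraries the latter log2FC was 0.96.

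TRIM6 makes free ubiquitin chains that support interferon signaling. Its FPKM was 0.972, 0.829 and 0.921 in BxPC-3 and 21.2, 17.6 and 17.1 in BxPC-3-GR. In CFPAC-1 it was 0.164, 0.154 and 0.255, and in CFPAC-1-GR 0.339, 0.591 and 0.696. By FPKM as listed, TRIM6 was the only one of the 7 genes that was higher in sensitive BxPC-3 than in CFPAC-1-GR. Each of the 4 lines stood apart from the next. The readthrough gene TRIM6-TRIM34, taken up below, also covers TRIM6 and was not added. This gene averaged 0.734 FPKM in CFPAC-1-GR and 0 in BxPC-3, so the order of the lines may not hold with it. TRIM6 was 20.6-fold higher in BxPC-3-GR (18.7 ± 2.25 against 0.908 ± 0.0724, SD, n = 3; log2FC 3.36, SE 0.0900). The ratio of 2.84 in CFPAC-1-GR (0.542 ± 0.184 against 0.191 ± 0.0555, SD, n = 3) had single-library ratios from 1.33 to 4.51. It rests on few fragments, since the inferred number was 8 to 13 per library in CFPAC-1.

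TRIM34, which acts with TRIM5 on incoming retroviral capsids, stood at 0.944, 1.38 and 1.44 FPKM in BxPC-3 and at 26.4, 22.5 and 27.8 FPKM in BxPC-3-GR. CFPAC-1 libraries held 0.949, 1.04 and 0.340 FPKM, and CFPAC-1-GR libraries 1.57, 3.11 and 3.05 FPKM. One library in each of the CFPAC-1 lines was well below the others of its line, yet the lines did not overlap. The increase was 20.4-fold in BxPC-3-GR (25.6 ± 2.74 against 1.26 ± 0.272, SD, n = 3; log2FC 3.56, SE 0.118). In CFPAC-1-GR it was 3.33-fold (2.58 ± 0.871 against 0.775 ± 0.379, SD, n = 3), with single-library ratios from 1.52 to 9.17 and a log2FC of 1.004 (SE 0.234). That log2FC was 0.81 without CFPAC-1 replicate 3, 0.89 without CFPAC-1-GR replicate 2 and 0.90 without CFPAC-1-GR replicate 3.

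The spread of TRIM34 moved with a neighbor that shares its exons. The readthrough gene TRIM6-TRIM34 (chr11:5596725-5644398), which joins both genes in 1 transcript, was listed at 0 in 8 libraries. It was at 1.24 FPKM in BxPC-3-GR replicate 1, 5.05 in BxPC-3-GR replicate 2, 0.874 in CFPAC-1 replicate 3 and 2.20 in CFPAC-1-GR replicate 1. In each of these lines, the library with most readthrough had the lowest TRIM34. The sum of both genes, taken after seeing these values, was 27.7, 27.6 and 27.8 FPKM in BxPC-3-GR, so that its coefficient of variation was 0.413% against 10.7% for TRIM34 alone. In CFPAC-1 the coefficient was 12.6% for the sum and 49.0% for TRIM34 alone, and in CFPAC-1-GR it was 12.2% and 33.8%. With the sum in place of TRIM34, the log2FC was 3.68 (SE 0.0943) in BxPC-3-GR and 1.06 (SE 0.0922) in CFPAC-1-GR. The level of TRIM34 by itself is uncertain to this extent. TRIM6 is also part of the readthrough and no such sum was taken for it. Its levels, and its order among lines and members, are thus uncertain as well.

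**Figure D1:**
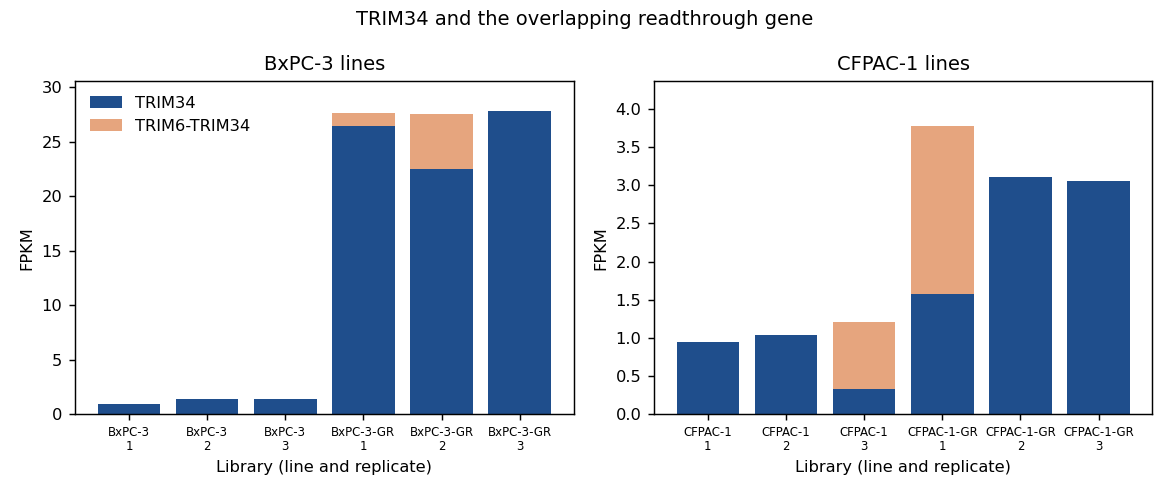
FPKM (bars from 0) of TRIM34 and, stacked on it, of the readthrough gene TRIM6-TRIM34 in each of 12 libraries, with the BxPC-3 lines and the CFPAC-1 lines on separate axes. The stacked height of the 3 BxPC-3-GR libraries lies between 27.6 and 27.8, while the share listed as readthrough differs between them.

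TRIM5, the capsid-binding retroviral restriction factor, was at 1.17, 0.952 and 1.04 FPKM in BxPC-3 and at 17.3, 16.7 and 18.98 FPKM in BxPC-3-GR. It was at 0.739, 0.881 and 0.990 FPKM in CFPAC-1 and at 2.04, 1.89 and 1.85 FPKM in CFPAC-1-GR. The parental lines overlapped, and each resistant line stood above its parent. The increase was 16.7-fold in BxPC-3-GR (17.7 ± 1.18 against 1.06 ± 0.110, SD, n = 3; log2FC 3.18, SE 0.0699) and 2.21-fold in CFPAC-1-GR (1.92 ± 0.101 against 0.870 ± 0.126, SD, n = 3; log2FC 0.65, SE 0.0755).

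TRIM22, an interferon-induced inhibitor of several viruses, had the highest fold increase in CFPAC-1-GR after TRIM21 in the values as deposited. Its FPKM was 0.590, 0.495 and 0.540 in CFPAC-1 and 4.15, 3.82 and 4.08 in CFPAC-1-GR. In BxPC-3 it was 0.457, 0.463 and 0.671, and in BxPC-3-GR 10.4, 10.6 and 12.5. The parental lines overlapped and the resistant lines did not overlap with them or with each other. The ratio was 21.1 in BxPC-3-GR (11.2 ± 1.17 against 0.530 ± 0.122, SD, n = 3; log2FC 2.99, SE 0.0924) and 7.41 in CFPAC-1-GR (4.01 ± 0.172 against 0.542 ± 0.0476, SD, n = 3; log2FC 1.70, SE 0.0648). Once the trends with GC content and length were removed, the latter log2FC was 0.86, under that of TRIM68 at 1.54.

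TRIM3, which carries NHL repeats in place of the SPRY domain of the other members and is known best from the brain, had the smallest increases. It was at 0.215, 0.313 and 0.317 FPKM in BxPC-3 and at 2.46, 3.03 and 1.96 FPKM in BxPC-3-GR. CFPAC-1 libraries were at 0.691, 0.604 and 0.505 FPKM, and CFPAC-1-GR libraries at 0.603, 0.570 and 0.735 FPKM. The libraries of the CFPAC-1 lines overlapped, while those of the BxPC-3 lines were apart. TRIM3 was 8.81-fold higher in BxPC-3-GR (2.48 ± 0.536 against 0.282 ± 0.0576, SD, n = 3; log2FC 1.43, SE 0.116), and its ratio in CFPAC-1-GR was 1.06 (0.636 ± 0.0873 against 0.600 ± 0.0930, SD, n = 3).

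**Figure D2:**
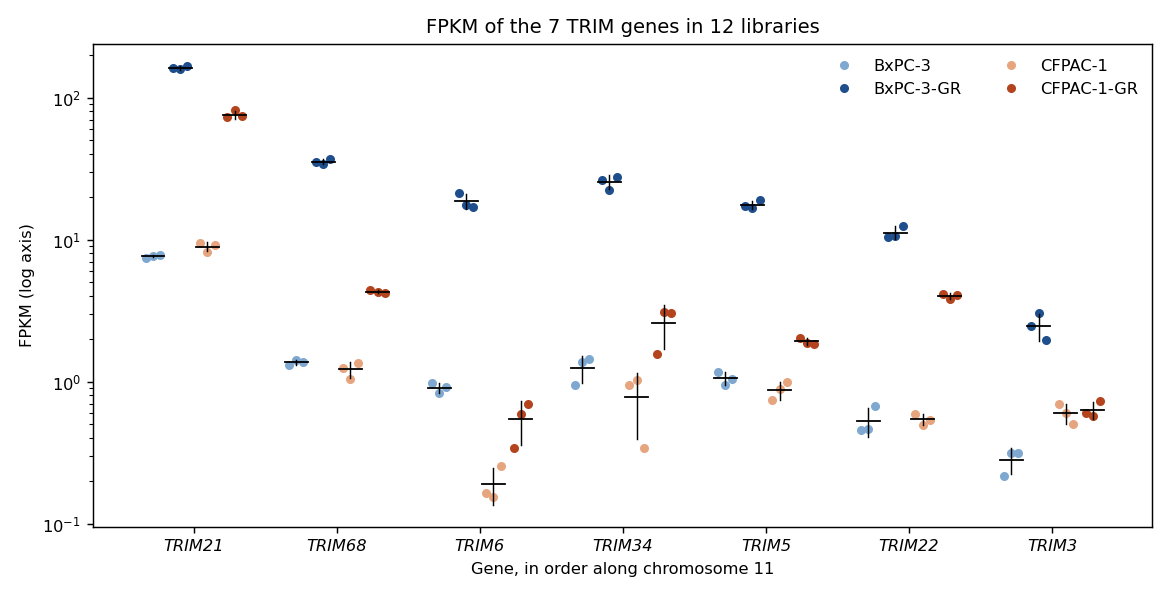
FPKM (log axis) of the 7 TRIM genes, in order along chromosome 11, in the 3 libraries of each of 4 lines. Points are libraries, horizontal lines are means and vertical lines are SDs. All BxPC-3-GR points lie above those of the other lines, and the CFPAC-1-GR points of TRIM3 lie among those of CFPAC-1.

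Summed over the 7 genes, the parental lines were alike at 13.1 ± 0.489 FPKM in BxPC-3 and 13.1 ± 0.688 FPKM in CFPAC-1 (SD, n = 3). The sum was 273 ± 9.81 FPKM in BxPC-3-GR and 90.0 ± 5.20 FPKM in CFPAC-1-GR. TRIM21 made up 58.6% ± 1.13 of it in BxPC-3 and 59.4% ± 0.754 in BxPC-3-GR, but 68.0% ± 1.78 in CFPAC-1 and 84.4% ± 0.801 in CFPAC-1-GR. By FPKM, which is per length, the order in BxPC-3-GR was TRIM21, TRIM68, TRIM34, TRIM6, TRIM5, TRIM22 and TRIM3, in which only TRIM6 and TRIM5 overlapped as neighbors. In CFPAC-1-GR it was TRIM21, TRIM68, TRIM22, TRIM34, TRIM5, TRIM3 and TRIM6, with overlap between TRIM34 and TRIM5 and between TRIM3 and TRIM6.

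Fold increases in BxPC-3-GR ran from 8.81 to 25.7 with a median of 20.6, so that 6 of the 7 genes lay between 16.7 and 25.7. In CFPAC-1-GR they ran from 1.06 to 8.50 with a median of 3.33. Genes were called at a Benjamini-Hochberg adjusted p below 0.05 in limma and an absolute log2FC above 1. Genes were tested if their FPKM averaged 1 or more over the 6 libraries. In BxPC-3-GR all 7 members passed this filter and were past both limits upward, as were 4.14% of the 11710 genes fitted. In CFPAC-1-GR 5 passed the filter and 4 were past both limits upward, as were 20.5% of the 12051 genes fitted. TRIM5 was not past them, and TRIM6 and TRIM3 had means under 1 FPKM. Some members passed that filter only through their resistant libraries. These were TRIM6, TRIM22 and TRIM3 in the BxPC-3 lines and TRIM34, TRIM5 and TRIM22 in the CFPAC-1 lines. The libraries did not overlap for 7 members in BxPC-3-GR, all higher, against 30.1% of tested genes. In CFPAC-1-GR they did not overlap for 6, against 45.7% of tested genes. These contrasts chose the members, which fixed the counts in advance, and nothing is read from them. The median log2FC over the 7 was 3.36 in BxPC-3-GR, and it was 1.004 in CFPAC-1-GR, beside -0.05 and 0.13 over all tested genes. Members nearest above a log2FC of 1 were TRIM34 at 1.004 and TRIM68 at 1.26 in CFPAC-1-GR, and TRIM3 at 1.43 in BxPC-3-GR, and TRIM5 in CFPAC-1-GR lay short of it at 0.65.

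In CFPAC-1-GR, the log2FC of all genes moved with their GC content, with a Spearman rho of -0.777 across 12030 genes, which are not independent replicates. The same rho was 0.0388 across 11685 genes in BxPC-3-GR. TRIM6, TRIM34, TRIM5 and TRIM22 had 41.8% to 44.8% GC, below the median of 49.2% for the genes tested in the CFPAC-1 lines, and TRIM21, TRIM68 and TRIM3 had 50.0% to 51.9%. When the trends with GC content and length were removed, the CFPAC-1-GR log2FC of TRIM21 became 3.33 and that of TRIM68 1.54. Those of TRIM22, TRIM34 and TRIM5 became 0.86, 0.70 and 0.01, so that 2 of 5 members were called up, beside 7.07% of all genes. In BxPC-3-GR the corrected values were 4.30 for TRIM21, 3.95 for TRIM68, 3.37 for TRIM6, 3.60 for TRIM34, 3.17 for TRIM5, 2.99 for TRIM22 and 1.41 for TRIM3. The part of GC content in the CFPAC-1-GR values was not tested further.

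**Figure D3:**
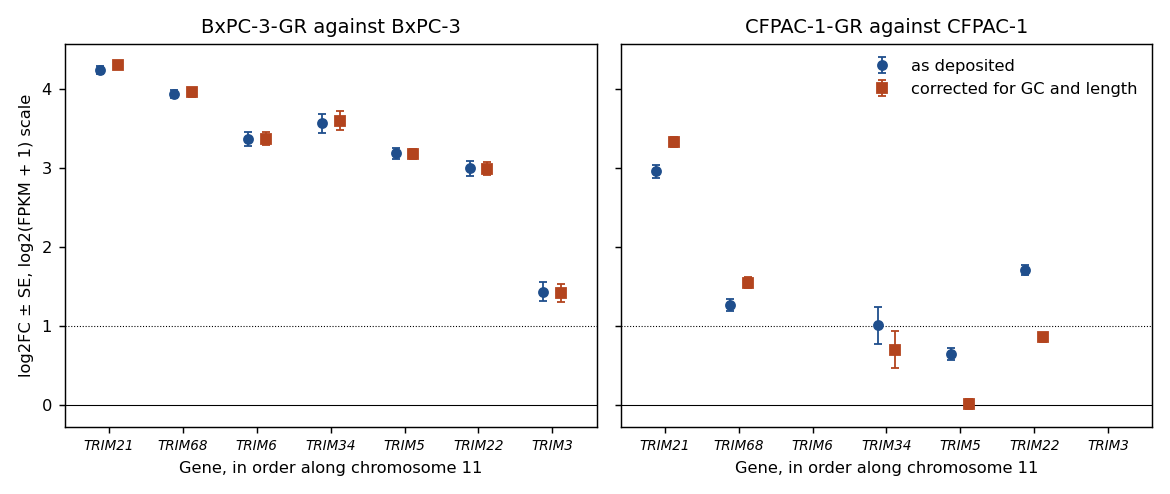
log2FC on the log2(FPKM + 1) scale (points, with SE) of each resistant line against its parent, as deposited and after removing trends with GC content and length, for the members tested. The values nearly coincide in BxPC-3-GR. In CFPAC-1-GR, TRIM21 and TRIM68 moved up and TRIM34, TRIM5 and TRIM22 moved down, the last from 1.70 to 0.86. The dotted line marks a log2FC of 1.

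The genes next to the members were read along the chromosome. RRM1 was 14.2-fold higher in BxPC-3-GR and 37.9-fold higher in CFPAC-1-GR, and STIM1, which senses calcium in the endoplasmic reticulum, was 22.3-fold and 8.29-fold higher. The span from TRIM21 to TRIM3 measured 2.09 Mb and held 137 other genes, of which 89 were olfactory receptor genes of the OR51 and OR52 families. Most were low, and 129 had a mean under 1 FPKM in the BxPC-3 lines and 134 in the CFPAC-1 lines. Leaving aside the readthrough gene TRIM6-TRIM34, 8 were tested in the BxPC-3 lines. Of these 8, 5 were called up and 3 down (limma), beside 4.14% up and 3.62% down of all genes. Those up were FAM160A2, CAVIN3, AC022762.2, SMPD1 and OR51E1, with log2FC from 1.97 to 4.37, and those down were HBE1 at -2.20, OR51B4 at -2.16 and AC087380.1 at -1.58. HBE1, the embryonic beta-like globin, lies between TRIM68 and TRIM6 and was lower in BxPC-3-GR, where both of these were higher. Of the 3 tested in the CFPAC-1 lines, FAM160A2, CAVIN3 and SMPD1, limma called 0, beside 32.2% of all genes. Among the 3, 1 had an unadjusted p below 0.05, and their log2FC were 0.19, -0.997 and -0.19. TRIM6-TRIM34 was tested in the BxPC-3 lines and not called, with a log2FC of 1.25 (limma, adjusted p = 0.123). Just outside the span, beyond TRIM3, the BxPC-3-GR log2FC of ARFIP2, TIMM10B and ILK were 3.48, 3.55 and 4.04, and that of MRPL17 was -0.80. Beyond STIM1, RHOG was at 4.05 and NUP98 at -0.51. In CFPAC-1-GR, ARFIP2, TIMM10B, ILK and MRPL17 were at 0.20, 1.08, -0.13 and -0.30, and RHOG and NUP98 at 0.89 and 1.37. Other tested genes lie there too. The CFPAC-1-GR values of the genes near the members are as deposited. They are given without the correction for GC content, with which log2FC moved in that line. The genes of the span and those outside it were named after their values were seen. TRIM66, farther out in 11p15 at chr11:8612037-8671866 and linked to chromatin, was below the filter. It went from 0.604 ± 0.141 to 1.14 ± 0.113 FPKM in the BxPC-3 lines and from 0.227 ± 0.0319 to 0.748 ± 0.171 FPKM in the CFPAC-1 lines (SD, n = 3).

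**Figure D4:**
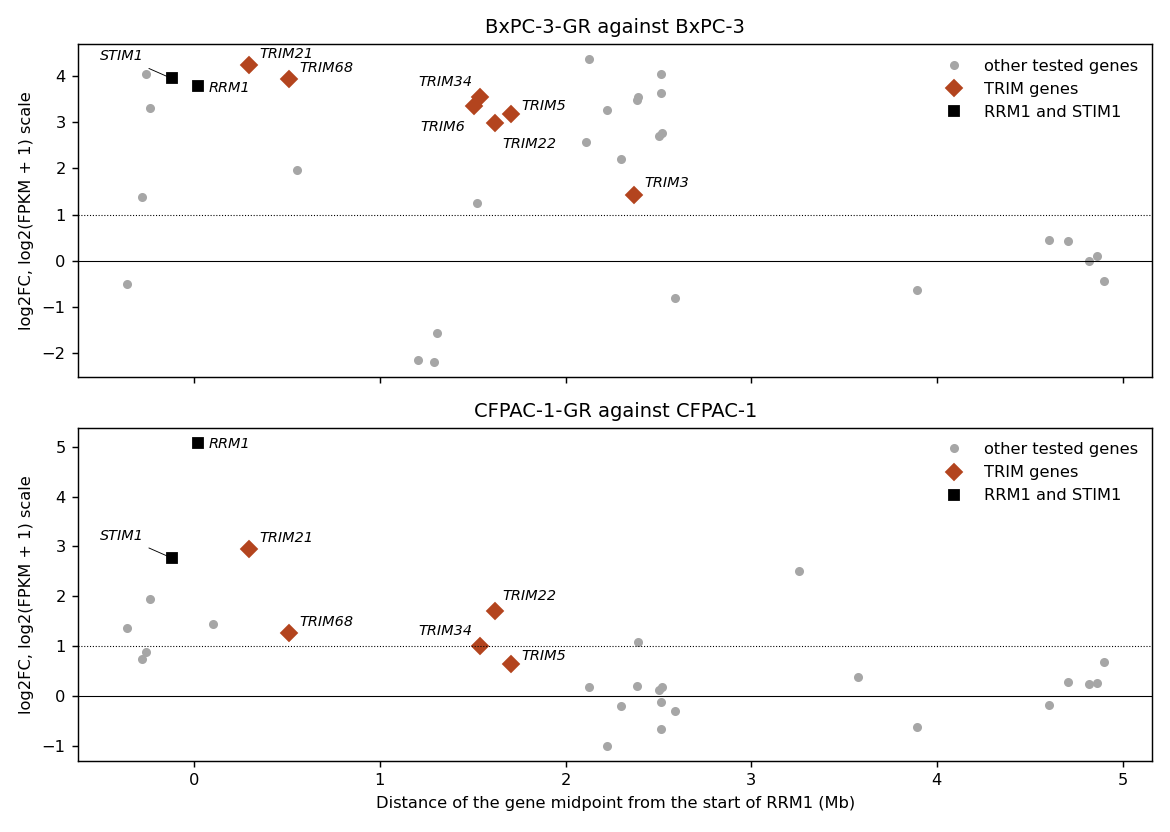
log2FC on the log2(FPKM + 1) scale of tested genes by the distance of their midpoint from the start of RRM1 in Mb, for each resistant line against its parent. Diamonds are the TRIM members, squares RRM1 and STIM1, circles other tested genes, and the dotted line marks a log2FC of 1. In BxPC-3-GR the 7 members lie between 1.43 and 4.24, with HBE1 and its neighbors below 0 among them. In CFPAC-1-GR TRIM21 is the highest member at 2.95, below RRM1 at 5.08.

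The sensitive lines were then compared with each other, with the caution that their libraries also entered the contrasts that chose the members. TRIM21 was lower in BxPC-3 than in CFPAC-1 by 0.20 on the log2 scale (limma, SE 0.0641, adjusted p = 0.0248), and the libraries did not overlap. An adjusted p below 0.05 was reached by 84.2% of the genes tested between these lines. After removal of the GC and length trends, the difference was 0.28 in the other direction, so its sign depends on this step. TRIM68 differed by 0.10 (limma, SE 0.0685, adjusted p = 0.217) and TRIM34 by 0.36 (limma, SE 0.180, adjusted p = 0.1004). For TRIM34 with the readthrough added it was 0.12. The GC content correction took TRIM68 to 0.47 (limma, adjusted p = 0.000577), and upper-quartile scaling took it to -0.07. Of these 3 tested members limma called 0 at the log2FC limit, with 1 at an unadjusted p below 0.05, where 44.5% of 11842 genes were called. The rest were below 1 FPKM. With no filter, where 52.6% of genes had an adjusted p below 0.05, TRIM6 was higher in BxPC-3 by 0.68 (limma, adjusted p = 0.000107) and TRIM3 lower by 0.32 (limma, adjusted p = 0.00545). TRIM5 differed by 0.14 and TRIM22 by -0.01 (limma, adjusted p = 0.146 and 0.880). By mean FPKM, TRIM6 was 4.75-fold higher in BxPC-3 than in CFPAC-1, and the TRIM3 ratio was 0.470. For TRIM6 this rests on 8 to 13 inferred fragments per CFPAC-1 library. The readthrough, at a mean of 0.291 FPKM in CFPAC-1 and 0 in BxPC-3, was not added. The log2FC of all genes moved with GC content here too (Spearman rho -0.628 across 11821 genes), and TRIM6 and TRIM3 were not fitted with the correction. The responses of the members in the 2 backgrounds are given side by side above, and their difference was not tested.

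Across the 12 libraries, Pearson's r of log2(FPKM + 1) between members ran from 0.724 to 0.990 over 21 pairs, with a median of 0.929. These values share the libraries and the resistant-parental contrast that chose the members. The genes outside the 7 members that were most like each member, among 12210 searched, were found by the same measure. For TRIM21 they were CLIC4, an intracellular chloride channel protein (r = 0.987), ZDHHC2 (0.986) and STIM1 (0.986). For TRIM68 they were CXCL8, the neutrophil chemokine interleukin-8 (0.992), IL1R1, the interleukin-1 receptor (0.990), and IGSF3 (0.989). TRIM6 was most like EXT1 (0.997), FBXO32 (0.995) and CORO2A (0.993), and TRIM5 was most like IGSF1 (0.997), TGFB3 (0.995) and EPPK1 (0.994). TRIM34 was most like AC022762.2 (0.990), which lies in the same span, LYPD6 (0.988) and CXCL8 (0.988). For TRIM22 the genes were AGO4 (0.994), SYTL4 (0.990) and MEGF9 (0.989), and for TRIM3 they were SLC1A1 (0.975), RCOR2 (0.974) and ARFIP2 (0.974), the last next to TRIM3 on chromosome 11. Most of these genes are on other chromosomes.

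The TRIM genes elsewhere in the genome were read from a list of 65, of which 25 were tested in each background. In BxPC-3-GR limma called 0 of them, beside 7.76% of all genes, with 17 at an unadjusted p below 0.05 and 16 at an adjusted p below 0.05. Of those 16, 5 were higher and the rest lower. In CFPAC-1-GR 10 were called up and 3 down, beside 20.5% up and 11.7% down of all genes. The largest increases there were TRIM44 at 2.42, TRIM33, a transcriptional corepressor, at 1.89 and TRIM2 at 1.79 (limma, adjusted p = 6.25e-06, 9.71e-06 and 2.64e-05). TRIM44 went from 3.49 ± 0.186 to 23.1 ± 1.31 FPKM (SD, n = 3). The decreases were TRIM47 at -1.61, TRIM28, the corepressor of KRAB zinc finger proteins, at -1.37 and PML, the organizer of nuclear bodies, at -1.19 (limma, adjusted p = 6.56e-05, 7.35e-06 and 1.75e-05). With the GC content correction, 3 were called, all up, beside 9.43% of all genes called. These were TRIM44, TRIM56 and MID2. Between the sensitive lines, 5 of 26 were called higher in BxPC-3 and 5 lower, beside 44.5% of all genes called.

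Interferon-stimulated genes, of whose promoters 54.4% held the core searched for above, were read from a list of 52. In BxPC-3-GR 1 of 40 tested was called up and 7 down, beside 4.14% up and 3.62% down of all genes, and the median log2FC was -0.24, beside -0.05 over all genes. GBP2, a guanylate-binding GTPase, rose by 1.65 (limma, adjusted p = 5.25e-05). IFI6, IFIT3 and SAMD9 fell, with log2FC of -2.08, -1.99 and -1.67 (limma, adjusted p = 0.00116, 7.48e-06 and 1.61e-05). IFIT3, part of an RNA-binding antiviral complex, went from 29.1 ± 1.21 to 6.59 ± 0.532 FPKM (SD, n = 3). In these same libraries the TRIM members were 8.81- to 25.7-fold higher, and a link between these genes and the members was not tested. In CFPAC-1-GR 18 of 43 were called up and 3 down, beside 20.5% up and 11.7% down of all genes, with a median of 0.52, beside 0.13. SAMD9, PARP14 and IFIT5 rose by 2.60, 2.36 and 2.28 (limma, adjusted p = 6.25e-06 each). ISG15, a ubiquitin-like modifier, ISG20 and IFITM1 fell, with log2FC of -1.28, -1.01 and -1.88 (limma, adjusted p = 2.07e-05, 0.000215 and 0.0133), the last with a wide spread in CFPAC-1-GR (25.8 ± 16.4 FPKM, SD, n = 3). With the GC content correction 7 were called up and 0 down, where 9.43% of all genes were called and 7.07% were called up. With median-of-ratios scaling 15 were called up and 6 down, beside 33.4% of all genes called. IFIT3 and SAMD9, which fell in BxPC-3-GR, moved the other way in CFPAC-1-GR. There IFIT3 went from 4.43 ± 0.276 to 22.8 ± 1.01 FPKM and SAMD9 from 0.238 ± 0.00778 to 6.57 ± 1.01 FPKM (SD, n = 3). The difference between the backgrounds was itself called for both in an interaction term of limma, which called 38.0% of 12210 genes. Between the sensitive lines 17 of 43 were called higher in BxPC-3 and 15 lower, beside 44.5% of all genes called.

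Enzymes and signaling proteins that work with the TRIM ligases were read from a list of 23, with 21 tested in each background. In BxPC-3-GR limma called 0, beside 7.76% of all genes, with 13 at an unadjusted and 13 at an adjusted p below 0.05. In CFPAC-1-GR 6 were called up and 1 down, which is 33.3% of those tested, near the 32.2% of all genes called there (20.5% up and 11.7% down). TAB2 and MAP3K7, the kinase complex that TRIM5 signals through, rose by 1.87 and 1.48, and UBE2K, a ubiquitin-conjugating enzyme that works with TRIM6, rose by 1.51 (limma, adjusted p = 7.29e-06, 3.20e-05 and 6.59e-06). TAB1 fell, with a log2FC of -1.003 (limma, adjusted p = 3.16e-05). None of these was called with the GC content correction. Under it limma called 0 of 21, beside 9.43% of all genes, with 11 at an unadjusted p below 0.05. Between the sensitive lines 5 of 19 were called higher in BxPC-3 and 1 lower, beside 44.5% of all genes called.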

How the data were processed

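RNA of the 4 lines was sequenced in 12 libraries, 3 of each. FPKM values, scaled to gene length and library depth, were deposited by the authors for 58302 genes in a single table. The methods of the study name GRCh38 with Ensembl release 91 and a test on counts. The submitters' processing notes list Trimmomatic 0.27, FastQC 0.10.1, TopHat2 2.0.8, hg19 and GRCh38, without their roles, and the coordinates of the members matched GRCh38. The counting program is not given in the sources used here.

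The 7 members and the gene lists were chosen with earlier results of these data known. FPKM are not counts, so limma (version 3.58.1, R 4.3.3; lmFit, eBayes) was applied to log2(FPKM + 1), with a pseudocount of 1, over genes whose FPKM averaged 1 or more in the 6 libraries, and p-values were adjusted by Benjamini-Hochberg over all genes tested. The difference between backgrounds was an interaction term over 12 libraries and 12210 genes. An exact permutation test (2-sided) of 3 against 3 libraries cannot go below 0.1, so p-values rest on the variance that limma pools over genes, and they measure the spread between these libraries. GC content and exon length were taken from GENCODE release 29, with 58039 genes matched, and their trends were removed with splines of 5 degrees of freedom. Named beside the members were TRIM6-TRIM34, TRIM66, RRM1, STIM1, the 3 called genes with the largest increase and decrease of each list and line, and the 3 genes most like each member. Other genes between the members and just outside them were named after their values were seen. The procedure was tested on simulated data that held no trend with GC content, so that test cannot speak to the trend in CFPAC-1-GR. Whole multiples of 1 fragment (tolerance 0.02) made up 60.8% to 71.3% of low values, too few to recover counts. Spearman correlations between libraries of a line were 0.917 to 0.925. As alternatives, the pseudocount was set to 0.1, the filter was dropped, all 12 libraries were fitted together, the replicate number was used as a block, the GC and length correction was made with and without it, libraries were rescaled by median-of-ratios or upper quartile, the prior variance was given a trend, and each library was left out in turn. Adding the readthrough to TRIM34 was chosen after seeing the data. Figures were drawn with matplotlib 3.10.9.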

Additional observations from a re-analysis of the deposited data

Results flagged for a closer look

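Genes of the lists outside the members that differed in response between the 2 backgrounds are given here as the log2FC in the CFPAC-1 lines minus that in the BxPC-3 lines (limma interaction term, 38.0% of 12210 genes called). No member was tested in this way. Among interferon-stimulated genes, IFIT3 and SAMD9 were called down in BxPC-3-GR and up in CFPAC-1-GR, with differences of 4.12 and 4.27 (limma, adjusted p = 5.20e-10 and 1.62e-09). IFIT5 differed by 2.75, PARP14 by 2.36, IFI6 by 1.47, GBP2 by -1.62 and IFITM1 by -2.66. The GC and length correction gave 3.75 for IFIT3, 3.14 for SAMD9, 1.76 for IFIT5, 1.52 for PARP14, 2.30 for IFI6, -2.13 for GBP2 and -2.15 for IFITM1.

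Among TRIM genes outside the members, TRIM44 differed by 2.59, TRIM33 by 2.24, TRIM2 by 1.02 and TRIM47 by -1.001. After the correction these were 1.78, 1.13, -0.01 and 0.27. Among the partners, MAP3K7 differed by 1.69, TAB2 by 1.54, UBE2K by 1.39 and TAB1 by -1.26, which became 0.62, 0.58, 0.34 and -0.29 after the correction. The part of GC content in these differences was not tested beyond this correction.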

How the results depend on the processing

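Of 135 alternative counts of called genes 120 were within 1.5 times the reported count, and of 241 alternative log2FC of single members 227 kept their sign and, where fitted, their call on adjusted p and log2FC together. The adjusted p alone crossed 0.05 in some of these, as for TRIM68 between the sensitive lines at 0.000577 with the GC and length correction (limma). A log2FC could also move far and stay among them, as TRIM5 in CFPAC-1-GR did from 0.65 to 0.01 with that correction. Both totals include the resistant-parental contrasts that chose the members. For those contrasts the totals say nothing about stability. The count in BxPC-3-GR was 7 under the alternatives run, leaving out libraries included, which the choice of the members fixed and which is no sign of stability. In CFPAC-1-GR 2 members, TRIM21 and TRIM68, were called with the GC and length correction, with or without the replicate block, and 2, TRIM21 and TRIM22, with upper-quartile scaling, and leaving out 1 library gave 3 to 4. TRIM34 there had a log2FC of 0.83 with median-of-ratios and 0.76 with upper-quartile scaling, and 0.81 to 1.23 with 1 library left out, and TRIM5 had 1.07 with a pseudocount of 0.1. Between the sensitive lines, TRIM21 changed sign to 0.28 with the GC and length correction, with or without the block, and TRIM68 to -0.071 with upper-quartile scaling. With that correction, with or without the block, 3 TRIM genes outside the members, 7 interferon-stimulated genes and 0 partners were called in CFPAC-1-GR. In BxPC-3-GR 1 partner was called. Without the block, 9.43% of all genes were called in CFPAC-1-GR and 7.69% in BxPC-3-GR. A pseudocount of 0.1 gave 1 TRIM gene outside the members and 3 partners in BxPC-3-GR, beside 12.2% of all genes. It gave 11 partners in CFPAC-1-GR, beside 44.5% of all genes. Leaving out 1 library gave 0 to 2 partners in BxPC-3-GR, with 2 without BxPC-3 replicate 3. In that fit 525 of 11701 genes were called up and 440 down. The cause of these changes was not tested.

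The median log2FC of all genes in CFPAC-1-GR was 0.13 as deposited, -0.11 with median-of-ratios and -0.21 with upper-quartile scaling, and the share of calls that were up was 63.7%, 43.3% and 36.0%. Correlations of deviations between same-numbered libraries ran from -0.143 to 0.0959, so the numbers were not taken to pair the libraries. With the replicate number as a block, 4 members were called in CFPAC-1-GR and 7 in BxPC-3-GR, and TRIM21 between the sensitive lines had an adjusted p of 0.0531 in limma. Depth limits TRIM6 in CFPAC-1 most, with 8 to 13 fragments inferred per library.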
